A study of Macaca fascicularis with 20 samples.

Results

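The vascular, mural and red cell miRNAs were followed through the fetal visual cortex of the crab-eating macaque (Macaca fascicularis). They were miR-126, miR-143, miR-145, miR-199a, miR-199b, miR-214, miR-144 and miR-451, spelled mir-126, mir-143, mir-145, mir-199a, mir-199b, mir-214, mir-144 and mir-451 in the tables. They were chosen by name, as markers of these cells, and no threshold on measured values entered the choice, although earlier results of these data were known. All 8 were present among the 828 names that both count tables used here share, as 16 of 1656 arms (the 5p and 3p products of each hairpin). Of these 16 arms, 12 passed the filter on low counts and were tested among 1139 arms. The 4 others, the 3p arms of miR-144, miR-199a, miR-199b and miR-451, are described by their counts.

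Small RNA was sequenced on the SOLiD platform from pieces cut by laser out of 7 regions of developing brain: the ventricular zone (VZ), the outer subventricular zone (OSVZ) and the cortical plate (CP) in areas 17 and 18, with OSVZ of area 17 taken as an inner (OSVZ_17int) and an outer (OSVZ_17ext) sublayer. The 14 libraries were 2 per region, 1 from embryonic day 80 (set 1, replicate 1) and 1 from embryonic day 79 (set 2, replicate 2), so that VZ and CP had 4 libraries each and OSVZ 6. No treatment or genotype is given in the labels, and they do not say if 1 fetus gave all regions of a set or if animals were pooled. A p-value here therefore measures only how far libraries vary around each other, which may be partly technical. Every piece is bulk tissue, so a lower level can mean fewer cells of a type or less RNA per cell, which cannot be told apart.

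Blood vessels enter the cortical wall from the pial surface and branch towards the ventricle while neurons are being born. Endothelial cells express miR-126 from an intron of EGFL7. Smooth muscle cells and pericytes, the mural cells wrapped around the endothelium, express miR-143 and miR-145 from 1 shared transcript. The miR-199a and miR-214 hairpins lie together on the transcript DNM3OS, opposite the gene DNM3, and mark mesenchymal cells and pericytes, while miR-199b is made opposite DNM1. Red cell precursors make miR-144 and miR-451 from 1 cluster under the factor GATA1.

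A library held between 3603478 and 9517217 counts (median 6729539), and the 8 names together took 0.242% to 0.613% of a library. As a check of the tissue label, the neural miR-9-5p stood at 3290.3 to 118716 CPM (counts scaled to a common library size with edgeR's TMM factors). By contrast miR-124, a neuronal miRNA of high abundance in brain, had only 10 counts of its 5p arm and 64 of its 3p arm in all 14 libraries. How reads that match several loci were counted is not given in the sources used here. Of the libraries, VZ_18 replicate 1 and VZ_17 replicate 2 stood apart, with the highest CPM of 17.8% and 15.2% of all tested arms. The differences of member arms between VZ and CP or OSVZ named below are also given without both. Differences between areas within VZ, most ratios and the differences of other miRNAs are given with all libraries only.

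Of all members the most abundant was miR-126-3p with a mean of 1995 CPM, at rank 44 among all arms, followed by miR-145-5p at 1454 CPM and miR-126-5p at 723 CPM. Next came miR-214-3p at 156 CPM, miR-143-3p at 96.7 CPM, miR-451-5p at 54.4 CPM, miR-199b-5p at 32.3 CPM and miR-199a-5p at 22.8 CPM. The other tested arms were miR-214-5p (15.1 CPM), miR-145-3p (6.61 CPM), miR-144-5p (5.15 CPM) and miR-143-5p (2.07 CPM). All mature miRNAs are of similar length, but adapter ligation favours some sequences, so this order is one of reads and not of molecules.

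The arms kept by each hairpin were uneven. The 5p arm held 99.4% of the reads of miR-145 (126096 against 783 counts), 27.4% of those of miR-126, 9.15% of those of miR-214 and 2.11% of those of miR-143. For miR-451, which is matured by AGO2 without Dicer from its 5p side, 5418 counts were 5p and 44 were 3p, and 36 of those 44 were in CP_17 replicate 2. The mature 3p arms of miR-199a and miR-199b are the same sequence, and the tables list 11 and 35 counts for them, against 2161 and 2975 counts of the 5p arms. The sources used here do not say how reads of the shared sequence were assigned, and only the 5p arms are compared between miR-199a and miR-199b.

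**Figure D1:**
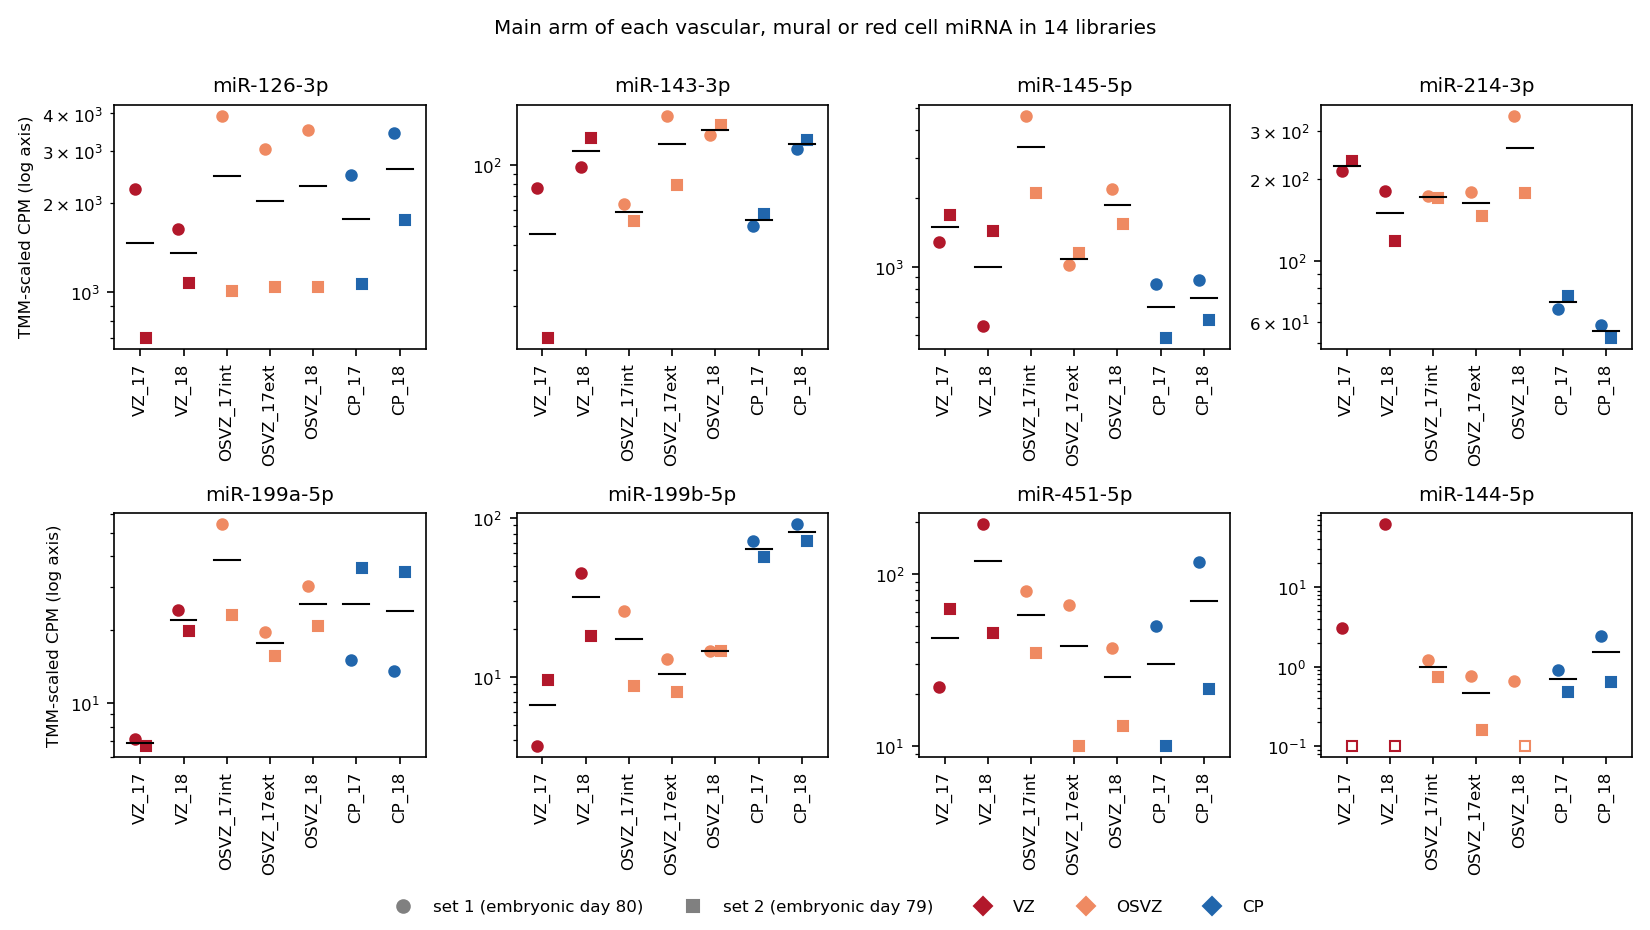
TMM-scaled CPM on log axes (each panel has its own range) of the arm with the higher mean of each of the 8 miRNAs, in every library of 7 regions; circles are set 1, squares set 2, black lines the mean of both libraries, and open symbols at 0.1 mark libraries with 0 counts (no mean is then drawn). For miR-214-3p the 4 CP libraries (52.4 to 74.6 CPM) lie below all others, for miR-199b-5p they lie above all others (57.3 to 91.4 CPM), and miR-126-3p is higher in set 1 in each region.

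Comparing VZ with CP asks how the vascular miRNAs are spread between the zone along the ventricle and the zone of young neurons under the pia. miR-214-3p was higher in VZ and miR-199b-5p lower, while miR-126, miR-143, miR-145 and both red cell miRNAs did not pass. Of the 12 member arms tested with edgeR, 2 passed an adjusted p of 0.05, where 7.37% of all tested arms did. By direction, 1 member was called higher (2.63% of all arms) and 1 lower (4.74% of all arms). At an unadjusted p under 0.05 there were 3 members, where 21.3% of all arms passed. The median log2 difference was -0.63 over the 12 arms and -0.22 over all 1139. Among all tested arms, 30 were higher and 54 lower with TMM, 34 and 42 with DESeq2 size factors, and 37 and 32 with library totals. The scaling places the median of all arms at -0.22, 0.023 and 0.21, and the differences below are to be read against that shift.

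For miR-214-3p the VZ libraries held 213 and 233 CPM in area 17 (sets 1 and 2) and 180 and 118 CPM in area 18, and the CP libraries 67.0, 74.6, 58.4 and 52.4 CPM in the same order. All VZ libraries lay above all CP libraries, as for 3.07% of all tested arms. The mean was 186 ± 50.1 CPM (SD, n = 4) in VZ and 63.1 ± 9.73 CPM (SD, n = 4) in CP, a fitted log2 difference of 1.53 ± 0.43 (SE, adjusted p = 0.0216), with 1.64 in set 1 and 1.40 in set 2. The direction held in 22 of 22 alternative settings and the call in 17, with adjusted p from 1.82e-07 to 0.166. It ended without CP_17 replicate 1 (0.166), CP_18 replicate 1 (0.112), CP_17 replicate 2 (0.0845) or CP_18 replicate 2 (0.0853), and in a fit of counts summed per set and zone (0.0546). The difference was 1.57 (adjusted p = 0.0275) without VZ_18 replicate 1 and VZ_17 replicate 2. The arm with fewer reads, miR-214-5p, did not pass, at -0.64 ± 1.01 (95% interval -2.69 to 1.40) and -1.72 without these 2 libraries.

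The opposite pattern belonged to miR-199b-5p. It stood at 3.66 and 9.61 CPM in VZ_17 (sets 1 and 2) and at 45.4 and 18.0 CPM in VZ_18, against 71.3 and 57.3 CPM in CP_17 and 91.4 and 71.4 CPM in CP_18. No VZ library reached the lowest CP library, as for 10.1% of all tested arms. The log2 difference was -2.29 ± 0.71 (SE, adjusted p = 0.0396), with -2.56 in set 1 and -2.24 in set 2, and it was -2.91 (adjusted p = 0.0196) without VZ_18 replicate 1 and VZ_17 replicate 2. The direction held in 22 of 22 settings and the call in only 8, with adjusted p from 8.09e-04 to 0.185. The call ended without the block for set (0.0691), with DESeq2 size factors (0.0807), with library totals (0.185), with no filter on low counts (0.143) and with counts summed per set and zone (0.157). It also ended without any 1 of the CP libraries (0.125 to 0.161), VZ_17 replicate 1 (0.1002), VZ_18 replicate 1 (0.107), VZ_18 replicate 2 (0.124), OSVZ_18 replicate 1 (0.0554) or OSVZ_17int replicate 2 (0.0520).

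Among the arms that did not pass, the mural miR-145-5p was at 1283 and 1690.2 CPM in VZ_17, 546 and 1440.2 CPM in VZ_18, 843 and 487 CPM in CP_17 and 872 and 584 CPM in CP_18. Of the VZ libraries, 3 were above all of CP, and VZ_18 replicate 1 was inside the range of CP. The log2 difference was 0.85 ± 0.39 (adjusted p = 0.213). It rose to 1.44 (adjusted p = 0.0199) without VZ_18 replicate 1, to 1.25 (adjusted p = 0.0246) without that library and VZ_17 replicate 2, and to 1.21 (adjusted p = 0.0310) with library totals, and with arms of at least 10 CPM it was 1.13 (adjusted p = 0.0404). It fell to 0.32 (adjusted p = 0.618) without VZ_18 replicate 2 and to 0.66 (adjusted p = 0.520) without CP_17 replicate 2. Its cluster partner miR-143-3p was at 76.8 and 13.9 CPM in VZ_17 and 97.9 and 135.9 CPM in VZ_18, against 49.7 and 56.9 CPM in CP_17 and 119.6 and 133 CPM in CP_18. The ranges overlapped, and miR-143-3p differed by -0.24 ± 0.50 (95% interval -1.26 to 0.79). Its value ran from -1.04 without VZ_17 replicate 1 to 0.54 without VZ_18 replicate 1 and VZ_17 replicate 2, and was 0.037 with DESeq2 size factors.

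The endothelial miR-126-3p was at 2231 and 702 CPM in VZ_17 and 1633 and 1075.5 CPM in VZ_18, against 2472 and 1063 CPM in CP_17 and 3439 and 1754 CPM in CP_18. The ranges of the zones overlapped, while within each of the 4 pairs of the same area and set the VZ library was the lower one, as for 17.1% of all tested arms. The differences of its arms were -0.61 ± 0.35 for 3p (95% interval -1.33 to 0.11, adjusted p = 0.321) and -0.69 ± 0.38 for 5p (adjusted p = 0.298). Without VZ_18 replicate 1 and VZ_17 replicate 2 they were -0.14 (adjusted p = 0.904) and -0.31 (adjusted p = 0.743). Of miR-199a-5p the VZ libraries held 7.10 and 6.63 CPM in area 17 and 24.0 and 19.7 CPM in area 18, and the CP libraries 15.0 and 36.0 CPM in area 17 and 13.5 and 34.4 CPM in area 18. These overlapped, and the difference was -1.01 ± 0.79 (95% interval -2.62 to 0.60), or -0.82 without the same libraries.

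The comparison of OSVZ, the germinal layer away from the ventricle, with CP was made in the same way. miR-214-3p and miR-145-5p were higher in OSVZ, and miR-199b-5p was lower. With edgeR 3 of the 12 arms were called, where 6.32% of all tested arms were, 2 of them higher (2.11% of all arms) and 1 lower (4.21% of all arms). At an unadjusted p under 0.05 the same count of 3 members passed, where 15.5% of all arms did. The medians were 0.070 over the members and -0.20 over all arms. Among all tested arms 24 were higher and 48 lower with TMM, 35 and 44 with DESeq2 size factors, and 38 and 34 with library totals, which place the median of all arms at -0.20, -0.045 and 0.035. Both comparisons share the 4 CP libraries, so the calls of miR-214-3p and miR-199b-5p in both are not independent of each other.

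In the 6 OSVZ libraries miR-214-3p ran from 146 CPM through a median of 175 CPM to 339.9 CPM in OSVZ_18 replicate 1. The lowest of them was above the highest CP library, as for 2.72% of all tested arms. The log2 difference was 1.71 ± 0.42 (SE, adjusted p = 0.00653), with 1.96 in set 1 and 1.41 in set 2. It kept its direction in 22 of 22 settings and its call in 18, with adjusted p from 4.35e-09 to 0.0833. The call ended without OSVZ_18 replicate 1 (1.49, adjusted p = 0.0833), CP_17 replicate 1 (0.0789) or CP_18 replicate 1 (0.0564), and with counts summed per set and zone (0.0580).

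The main arm of miR-145, a regulator of the contractile state of smooth muscle, ran in OSVZ from 1017 CPM through a median of 1817 CPM to 4609.6 CPM in OSVZ_17int replicate 1. All 6 libraries were above the 4 of CP (487 to 872 CPM), as for 2.72% of all tested arms. The log2 difference was 1.44 ± 0.37 (SE, adjusted p = 0.0109), with 1.35 in set 1 and 1.53 in set 2. It kept its direction in 22 of 22 settings and its call in 17, with adjusted p from 3.13e-05 to 0.110. The call ended without the block for set (0.0614), without OSVZ_18 replicate 1 (0.0748), CP_17 replicate 2 (0.110) or CP_18 replicate 2 (0.0829), and with counts summed per set and zone (0.0628). The minor arm miR-145-3p was at -1.48 ± 1.27 and did not pass.

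For miR-199b-5p the OSVZ libraries ran from 8.08 CPM through a median of 13.7 CPM to 25.9 CPM, all below the lowest CP library at 57.3 CPM, as for 5.71% of all tested arms. The log2 difference was -2.38 ± 0.66 (SE, adjusted p = 0.0180), with -2.27 in set 1 and -2.48 in set 2. It kept its direction in 22 of 22 settings and its call in 13, with adjusted p from 5.55e-05 to 0.187. The call ended with library totals (0.0750), with no filter on low counts (0.0686), with summed counts (0.0602), without any 1 of the CP libraries (0.0616 to 0.110), without OSVZ_18 replicate 1 (0.187) and without OSVZ_18 replicate 2 (0.152).

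In the same comparison miR-126-3p ran in OSVZ from 1010.4 CPM through a median of 2034 CPM to 3932 CPM, a range that covered that of CP. Its difference was -0.070 ± 0.33 (95% interval -0.74 to 0.60), with 0.26 in set 1 and -0.41 in set 2. The difference of miR-126-5p was 0.078 ± 0.37, with 0.94 in set 1 and -0.72 in set 2. miR-143-3p was at 0.44 ± 0.47 (95% interval -0.52 to 1.39), with 0.66 in set 1 and 0.21 in set 2. It lay between 52.9 and 175 CPM in OSVZ and between 49.7 and 133 CPM in CP. miR-199a-5p, between 15.7 and 54.2 CPM in OSVZ, was at 0.062 ± 0.75 (95% interval -1.46 to 1.58), with 1.11 in set 1 and -0.81 in set 2. The interval of miR-199a-5p covers differences of either sign.

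**Figure D2:**
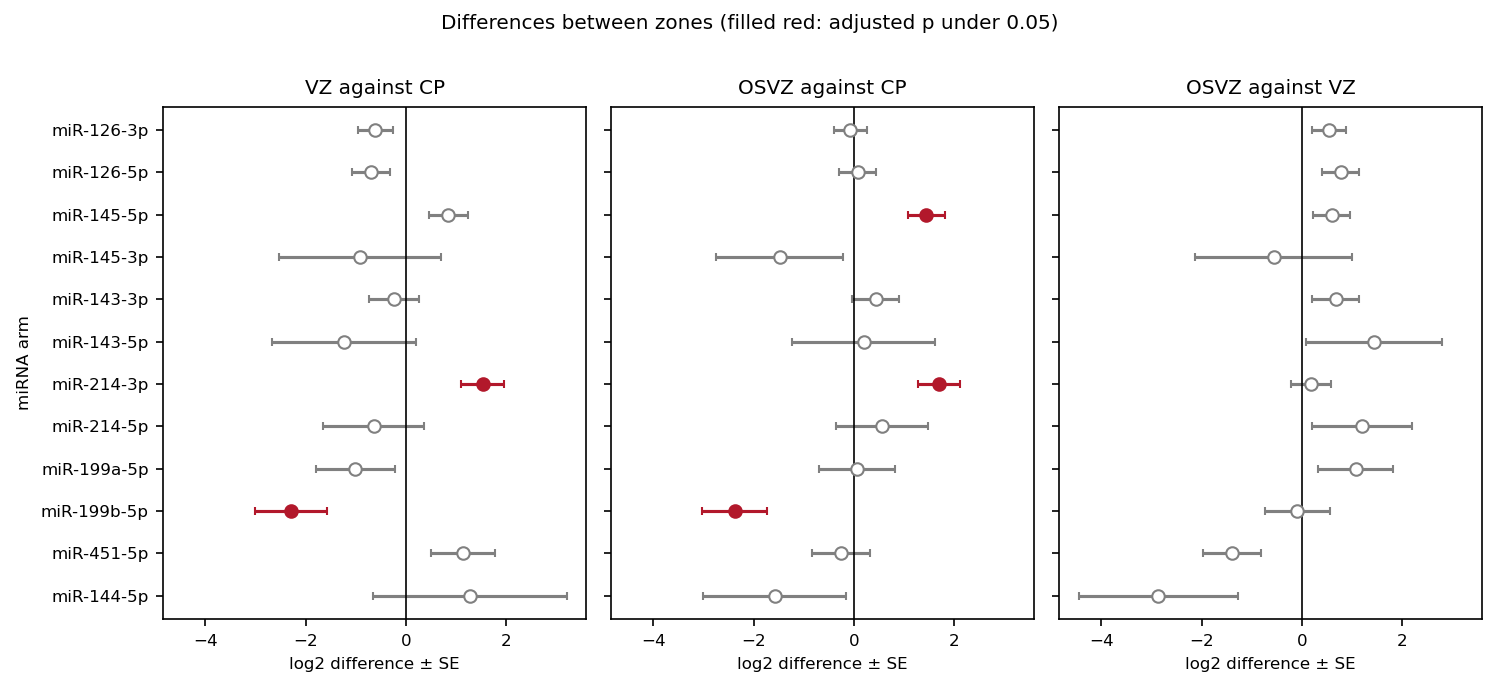
Fitted log2 differences with SE (x axis) of the 12 tested arms (y axis) for VZ against CP, OSVZ against CP and OSVZ against VZ, with called arms filled in red. Calls are miR-214-3p above 0 (1.53 and 1.71) and miR-199b-5p below 0 (-2.29 and -2.38) in both comparisons with CP, and miR-145-5p above 0 in OSVZ against CP (1.44); no arm is called in the third panel.

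Between the 2 germinal layers, 0 of the 12 member arms were called with edgeR, where 0.0878% of all tested arms were. With DESeq2 0 members were called, where 28 of all 1139 arms were. At an unadjusted p under 0.05, which 9.92% of all arms passed, there were 2, miR-451-5p (-1.39 ± 0.58 in OSVZ against VZ, adjusted p = 0.464) and miR-126-5p (0.77 ± 0.36, adjusted p = 0.482). Without VZ_17 replicate 2 the value of miR-451-5p was -0.20, with or without VZ_18 replicate 1, and without both that of miR-126-5p was 0.52. For miR-214-3p the difference was 0.17 ± 0.40 (95% interval -0.64 to 0.98) and for miR-199b-5p -0.090 ± 0.64 (95% interval -1.40 to 1.22), and without both libraries these were 0.29 and 0.67.

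A ratio of 2 arms within a library does not depend on how libraries are scaled, so ratios were compared between the 10 germinal libraries (VZ and OSVZ) and the 4 of CP by an exact two-sided permutation test that exchanged labels within each set. There are 441 arrangements, and 0.00227 is the smallest p they allow. Of 9 ratios, 3 had a Benjamini-Hochberg adjusted p under 0.05. Each of the 3 contains an arm called in OSVZ against CP (miR-199b-5p, miR-214-3p or miR-145-5p). They use the same 4 CP libraries, so they are not independent of those calls. How often other pairs of arms pass this test was not computed. Libraries of the same zone and set may share an animal, which the test does not take into account.

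The first was miR-199b-5p to miR-199a-5p, 2 close relatives whose 5p arms differ. In CP the log2 ratio was 2.25 and 2.75 in set 1 and 0.67 and 1.05 in set 2, so miR-199b-5p had more reads than miR-199a-5p in each CP library. In OSVZ it ran from -1.39 to -0.51, so miR-199a-5p had more reads in all 6 libraries. In VZ it was -0.94, 0.92, 0.53 and -0.13 in VZ_17 replicate 1, VZ_18 replicate 1, VZ_17 replicate 2 and VZ_18 replicate 2. Within each set, both CP libraries lay above all 5 germinal ones. Germinal libraries were lower by -2.20 on the log2 scale (exact permutation p = 0.00227, adjusted p = 0.0204), and by -2.51 without VZ_18 replicate 1 and VZ_17 replicate 2.

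The second was miR-199a-5p to miR-214-3p, the pair that shares a transcript (a further miR-199a hairpin lies elsewhere). The log2 ratio was -1.48 ± 0.77 (SD, n = 4) in CP, -2.92 ± 0.64 (SD, n = 6) in OSVZ and -3.87 ± 1.32 (SD, n = 4) in VZ. The germinal libraries were lower by -1.82 (exact permutation p = 0.0159, adjusted p = 0.0476), and 9 of 10 lay below the lowest of CP. The exception was OSVZ_17int replicate 1 at -1.67.

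The third was miR-126-3p, an endothelial arm, to miR-145-5p, a mural arm. The other mural main arm, miR-143-3p, had an r of -0.18 with miR-145-5p and 0.49 with miR-126-3p (Pearson, described below). A ratio of miR-126-3p to miR-143-3p was not computed, so the values that follow hold for miR-145-5p and not for mural miRNAs in general. The log2 ratio of miR-126-3p to miR-145-5p was 1.56 ± 0.35 (SD, n = 4) in CP, 0.042 ± 0.94 (SD, n = 6) in OSVZ and 0.17 ± 1.27 (SD, n = 4) in VZ. The germinal libraries were lower by -1.47 (exact permutation p = 0.00680, adjusted p = 0.0306), and 8 of 10 were below the lowest of CP, the exceptions being VZ_18 replicate 1 (1.58) and OSVZ_17ext replicate 1 (1.58). With labels exchanged over all libraries in place of within sets the adjusted exact p was 0.0629.

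With 1 CP library left out fewer arrangements remain, and a lone ratio at the smallest p then has an adjusted p of 0.0714. The 3 ratio calls therefore ended, by construction or by value, without some libraries, with adjusted exact permutation p of up to 0.0714 (miR-199b-5p to miR-199a-5p, without CP_18 replicate 1, CP_17 replicate 2 or CP_18 replicate 2), 0.143 (miR-199a-5p to miR-214-3p) and 0.143 (miR-126-3p to miR-145-5p). That of miR-199a-5p to miR-214-3p ended without any 1 CP library and without VZ_18 replicate 1, at the threshold itself, or any OSVZ library other than OSVZ_17int replicate 1 (0.0667 to 0.0857). That of miR-126-3p to miR-145-5p ended without CP_18 replicate 1 (0.143), CP_17 replicate 2 or CP_18 replicate 2 (0.107 each) or OSVZ_18 replicate 2 (0.0571). Their signs did not change in any of 17 settings.

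Among the 6 ratios that did not pass were those of the partners miR-143-3p to miR-145-5p (-1.16, adjusted exact permutation p = 0.323) and miR-144-5p to miR-451-5p (-0.87, adjusted exact permutation p = 0.561). The partners miR-143-3p and miR-145-5p were far apart in reads, with miR-145-5p ahead in all 14 libraries, with a log2 ratio from -6.92 in VZ_17 replicate 2 to -2.13 in CP_18 replicate 2. For the 5p to 3p ratios, that of miR-126 did not pass either (0.12, adjusted exact permutation p = 0.587). That of miR-145 was 3.09 higher in germinal libraries without passing (adjusted exact permutation p = 0.131) and was 3.72 (adjusted exact permutation p = 0.0286) without VZ_18 replicate 1. Its size depends on the 0.5 added to each count, and with 5 added it was 2.42. The 3p arm had 0 counts in VZ_17 replicate 2, 1 in VZ_18 replicate 2 and 2 in OSVZ_17ext replicate 1.

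**Figure D3:**
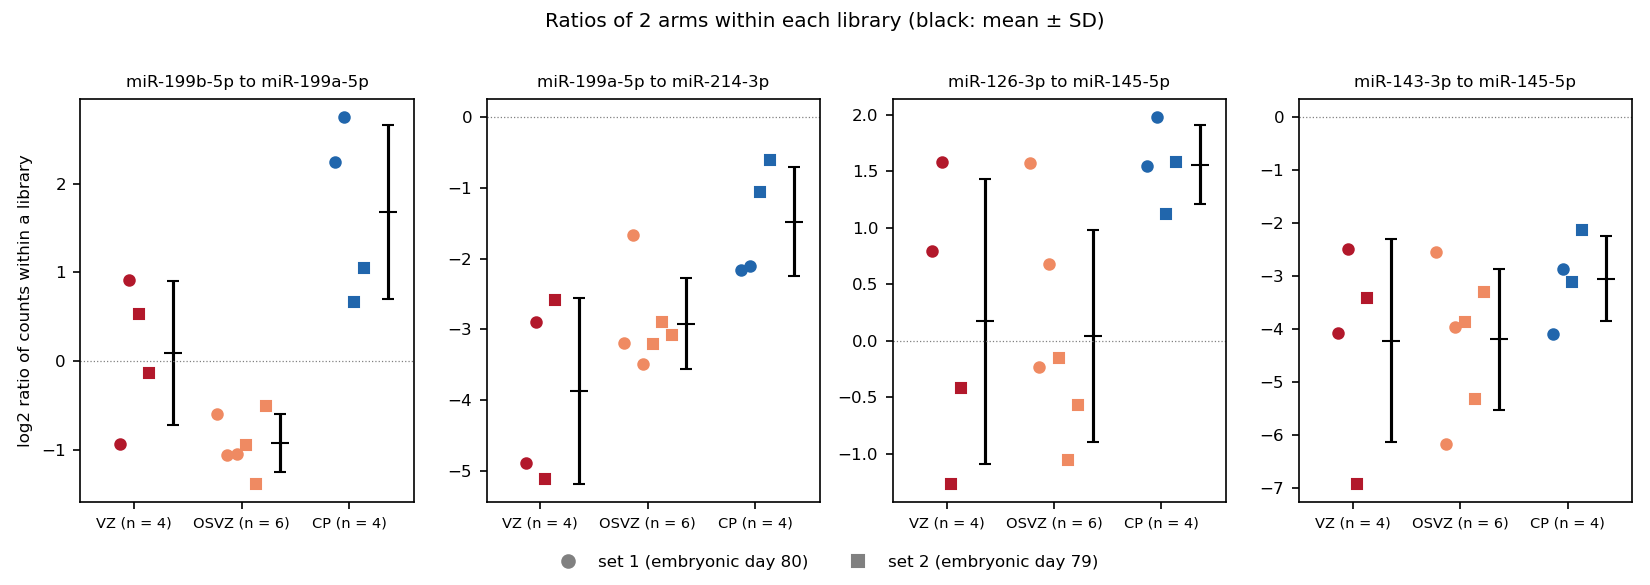
Log2 ratios of the counts of 2 arms within each library (y axis, 0.5 added to each count) by zone, circles for set 1 and squares for set 2, with the mean and SD in black. The ratio of miR-199b-5p to miR-199a-5p is above 0 in the 4 CP libraries and below 0 in the 6 OSVZ libraries; the ratio of miR-143-3p to miR-145-5p, which did not pass, is below 0 in all 14.

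Reads of miR-144 lay mostly in 1 library. For miR-144-5p, 655 of 715 counts (91.6%) were in VZ_18 replicate 1, and no other library had more than 14. For miR-144-3p, 80 of 96 counts were in the same library, and no other had more than 5. The main product miR-451-5p had 2072 counts there and 62 to 530 counts elsewhere, or 193 CPM against 9.9998 to 117 CPM. Outside the 8 names, the red cell miRNA miR-486-5p had 630 counts in that library and 444 counts in VZ_17 replicate 2. On the CPM scale this was 58.7 against 60.1 CPM, so miR-486-5p did not single out VZ_18 replicate 1. The arm with fewer reads, miR-486-3p, had 149 of its 300 counts in VZ_18 replicate 1 (13.9 CPM) and at most 57 counts elsewhere.

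Neither red cell miRNA passed the test between zones. miR-451-5p was at 21.9 and 62.7 CPM in VZ_17, 193 and 45.1 CPM in VZ_18, 49.7 and 9.9998 CPM in CP_17 and 117 and 21.6 CPM in CP_18, and between 10.01 and 79.7 CPM in OSVZ. The ranges overlapped, and the difference of VZ against CP was 1.14 ± 0.64 (95% interval -0.15 to 2.43, adjusted p = 0.298). It was 0.14 without VZ_18 replicate 1 and VZ_17 replicate 2. The value for miR-144-5p turned from 1.28 ± 1.93 to -1.70 when the same libraries were left out. Its difference was -2.18 without VZ_18 replicate 1 alone and -0.42 without VZ_17 replicate 1 alone, so the sign depended on single libraries.

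In the same library miR-214-3p, at 180 CPM, was between the other VZ libraries, miR-145-5p was at its VZ minimum and miR-199b-5p at its VZ maximum, below all CP libraries, and the part of red cell reads in these values was not tested. The minor arm miR-145-3p, however, had 465 of its 783 counts in that library and 0 to 135 counts elsewhere, while its main arm did not stand out there.

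**Figure D4:**
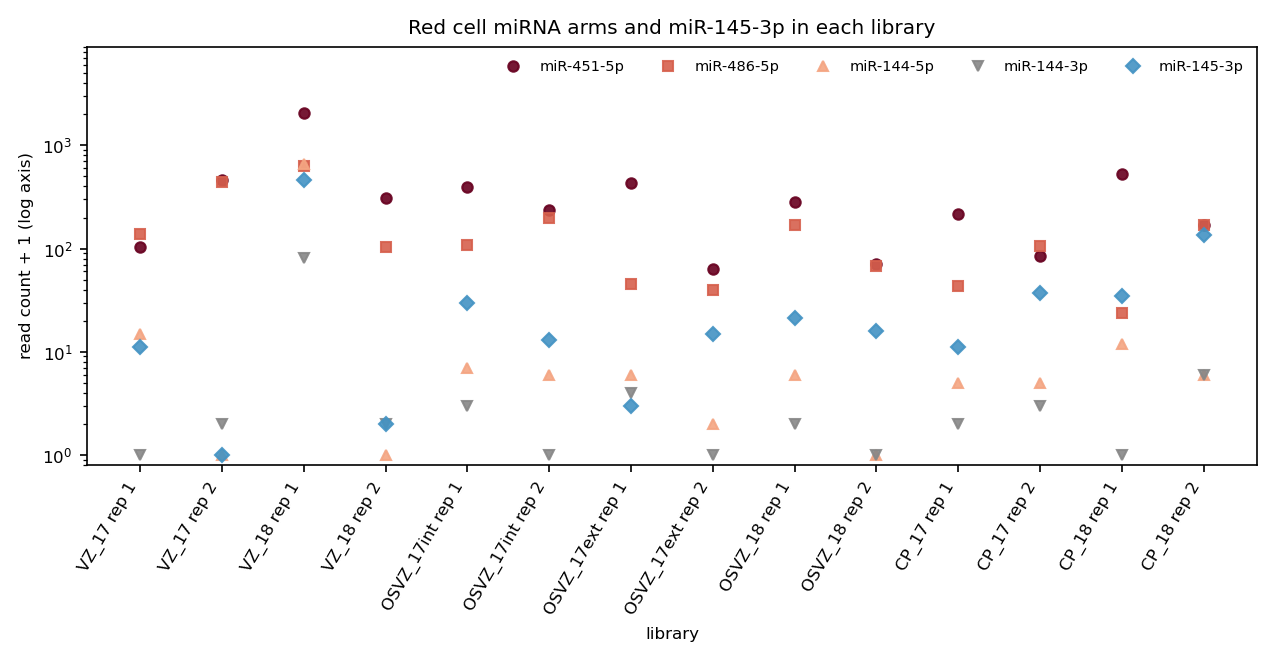
Read counts plus 1 on a log axis of miR-451-5p, miR-486-5p, miR-144-5p, miR-144-3p and miR-145-3p in each of 14 libraries (x axis). VZ_18 replicate 1 holds the highest count of each, with 2072 counts of miR-451-5p and 655 of miR-144-5p, while on the CPM scale miR-486-5p is higher in VZ_17 replicate 2 (60.1 against 58.7 CPM).

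Comparing area 17 with area 18 asks whether the vascular miRNAs differ between areas that later differ in neuron number. Over all zones 0 of 12 arms were called with edgeR, where 0.0878% of all tested arms were. With DESeq2 0 were called, where 16 of all 1139 arms were. In edgeR 2 members had an unadjusted p under 0.05, where 8.69% of all arms did. These were miR-143-3p (-1.21 ± 0.40, adjusted p = 0.262) and miR-214-5p (-1.84 ± 0.78, adjusted p = 0.461). miR-143-3p was lower in the area 17 library in 7 of 8 pairs of libraries of the same zone and set (each OSVZ_18 library enters 2 pairs), for example 49.7 against 120 CPM and 56.9 against 133 CPM in CP. In the pair that went the other way, OSVZ_17ext replicate 1 held 175 CPM and OSVZ_18 replicate 1 held 141 CPM. Being lower in at least 7 pairs was shared by 5 of 12 members (also miR-143-5p, miR-145-3p, miR-199b-5p and miR-214-5p) and by 6.85% of all tested arms, whose median difference was -0.23. The difference of miR-143-3p was -1.71 without VZ_17 replicate 1 and -0.83 without VZ_17 replicate 2, each of which leaves a single VZ_17 library. Within VZ, OSVZ or CP alone 0 members were called by edgeR, where 0.176%, 0.0% and 0.0% of all arms were. DESeq2 called 0 members too, where it called 22, 0 and 3 of all 1139 arms. At an unadjusted p under 0.05 in edgeR there were 2, 0 and 1 members, where 7.90%, 2.55% and 3.16% of all arms passed. Within VZ they were miR-143-3p (-1.53 ± 0.74) and miR-214-5p (-3.39 ± 1.54), and within CP miR-126-5p (-1.27 ± 0.55). For the interaction of zone and area, 0 members were called by edgeR in VZ against CP or OSVZ against CP, where 0.0878% and 0.0% of all arms were. DESeq2 called 0 members too, where it called 8 and 0 of all 1139 arms. With so few calls among all arms, these counts of 0 say little about the members. In edgeR 0 members had an unadjusted p under 0.05, where 5.79% (VZ against CP) and 2.99% (OSVZ against CP) of all arms did.

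Between the sublayers of area 17 OSVZ, 0 members were called by edgeR, where 0.0% of all arms were. DESeq2 called 0 members too, where it called 2 of all 1139 arms. At an unadjusted p under 0.05 in edgeR there was 1 member, where 4.04% of all arms passed. This was miR-145-5p, at 4609.6 CPM in the inner and 1017 CPM in the outer sublayer in set 1 and at 2099 and 1152 CPM in set 2. The inner sublayer was higher in both sets, by 1.59 ± 0.56 on the log2 scale (adjusted p = 0.938, where 0.0% of all arms were called). Without OSVZ_17int replicate 1, the highest of the 6 OSVZ libraries, it was 0.93 (adjusted p = 0.885). Its partner miR-143-3p was at 64.1 and 175 CPM in set 1 and 52.9 and 79.3 CPM in set 2, lower in the inner sublayer in both sets without passing (-1.07 ± 0.72, adjusted p = 0.938).

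Other miRNAs of the same cell types were counted from fixed lists. The shares of all tested arms called were 2.63% higher and 4.74% lower in VZ against CP, and 2.11% and 4.21% in OSVZ against CP. Of 23 tested arms of endothelial and angiogenic miRNAs other than miR-126, 2 were higher in VZ than in CP and 0 lower, namely miR-222-3p (3.12 ± 0.44) and miR-23a-3p (1.45 ± 0.37), and miR-222-3p alone was higher in OSVZ (2.85 ± 0.43). miR-222 is also made by dividing cells of many kinds. Of 19 arms of other mural and mesenchymal miRNAs, miR-152-3p (2.11 ± 0.42) and miR-28-3p (1.61 ± 0.40) were higher and miR-140-5p (-1.90 ± 0.47) lower in VZ, and miR-152-3p (1.67 ± 0.40) and miR-28-3p (1.28 ± 0.38) were higher in OSVZ. Of 7 arms of striated muscle miRNAs, 0 were called in either comparison by edgeR. Both arms of miR-486 had an unadjusted p under 0.05 in VZ against CP, as 21.3% of all arms did, without passing (5p 1.78 ± 0.84, adjusted p = 0.217). The 5p arm was at 58.7 and 60.1 CPM in VZ_18 replicate 1 and VZ_17 replicate 2, the libraries that stood apart. It was at 29.7 and 14.8 CPM in VZ_17 replicate 1 and VZ_18 replicate 2, and at 5.09 to 21.4 CPM in CP. Its difference without the libraries that stood apart is not given here.

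MiRNAs of immune cells, which can travel with vessels, were counted in the same way. Of 10 tested arms of immune cell miRNAs, 2 were higher in VZ than in CP (2.63% of all arms) and 0 lower (4.74% of all arms). These were miR-223-3p (2.29 ± 0.52), of myeloid cells, and miR-155-5p (2.92 ± 0.53), and miR-155-5p (2.41 ± 0.50) was higher in OSVZ. The summed level of the 10 arms was 861 to 1059 CPM in VZ, 737 to 1283 CPM in OSVZ and 464 to 525 CPM in CP, and none of them was at 0 in all libraries. An immune arm outside this list, miR-342-3p, was lower in VZ (-1.67 ± 0.37) and was picked out after its values were seen. The part of immune cells in the higher levels of miR-214-3p and miR-145-5p was not tested. The hypoxia-induced miR-210-3p was higher in VZ too (1.49 ± 0.41).

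Profiles most like those of the members were looked up among 379 arms averaging 10 CPM or more, by Pearson's r of log2(CPM + 1) over the 14 libraries with each set centred on its mean. These r are descriptions, since libraries share sets, depth and scaling. The profile of miR-214-3p was closest to those of miR-1301-3p (r = 0.930), miR-574-3p (0.929) and miR-92b-3p (0.920), the last a miRNA of cortical progenitors. That of miR-199b-5p was closest to miR-876-3p (0.938), miR-138-3p (0.920) and miR-192-5p (0.8995), and its r with miR-214-3p was -0.83. miR-145-5p was closest to miR-99a-5p (0.815), miR-423-3p (0.793) and miR-150-5p (0.737), miR-143-3p to miR-28-5p (0.843), miR-9-3p (0.796) and miR-153-3p (0.795), and the r of these cluster partners with each other was -0.18.

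For miR-126-3p the closest were miR-135b-5p (0.780), miR-195-5p (0.779) and miR-140-5p (0.774), below its r with its own 5p arm (0.884). miR-126-5p was closest to miR-153-3p (0.782), miR-3165-5p (0.778) and miR-185-5p (0.735). For miR-199a-5p they were miR-652-3p (0.8289), miR-597-5p (0.747) and miR-1274b-5p (0.714), and for miR-214-5p miR-425-5p (0.805), miR-216b-5p (0.738) and miR-3159-3p (0.668). miR-451-5p was closest to miR-512-5p (0.797), miR-542-5p (0.785) and miR-412-3p (0.751). Among the members, miR-126-3p had an r of 0.49 with miR-143-3p, 0.20 with miR-145-5p, 0.59 with miR-199a-5p and -0.37 with miR-214-3p. For miR-126-5p these were 0.58, 0.11, 0.65 and -0.17 in the same order. The likeness of miR-126 to mural or mesenchymal arms thus differed from arm to arm over these libraries, and a difference between cell types was not tested.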

How the data were processed

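The deposited values are the authors' read counts for each arm of each miRNA name, and the sources used here give no aligner, genome build or miRNA annotation for them. Columns of 14 libraries were matched to the labels of sets 1 and 2 through the region names in the column headers, and 12 value columns of 6 libraries whose names match no label were not used. The 6 labelled samples of the third set were not analysed here. Counts over the 828 shared names were filtered with filterByExpr by region (1139 arms kept, 517 removed, 99.99% of counts kept), scaled with TMM and fitted in R 4.3.3 with edgeR 4.0.16 (quasi-likelihood F test, 6 residual and 28.1 prior degrees of freedom) on contrasts of region means with the set as a block. Both sublayers of area 17 together weighed as much as area 18 in the OSVZ mean. Adjustment of p-values was by Benjamini-Hochberg over all 1139 arms, and intervals of 95% come from the SE. Counts of amplified reads are not independent molecules. The labels give each set its own embryonic day, and deviations from region means correlated between libraries of a set with a median r of 0.309 (20 of 21 pairs above 0.1). Ratios were tested in Python 3.11.15. DESeq2 1.42.0 was an alternative. The model was also tested on simulated data, and the design, written for 20 libraries in 3 sets, was fitted to 14 in 2 sets. Per library, values are given for the arm with the higher mean of each member and for called arms, and the 3 most alike arms are named. The members and lists were chosen with earlier results of these data known.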

Additional observations from a re-analysis of the deposited data

Results flagged for a closer look

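Within each zone, the highest and lowest library of each of the 16 member arms was set against the others by Dixon's test at 95%, on CPM. Of 47 groups with any spread, 13 had a library that stood out. In 2 of them (miR-451-3p and miR-199a-3p in VZ) 1 library alone had reads, so that it stands out by construction. Of the 45 other groups 11 had such a library. The level of 1 in 20 set for the test holds for normally distributed values, which CPM on few counts need not be. The share among all tested arms was not computed, so this count cannot be set against a background. In VZ, VZ_18 replicate 1 stood out for miR-144-5p (61.0 CPM, the next 3.01), miR-144-3p (7.45 CPM, the next 0.145), miR-145-3p (43.3 CPM, the next 2.15) and miR-214-5p (30.5 CPM, the next 5.08). The last 3 are the arms with fewer reads of their hairpins, and miR-214-3p and miR-145-5p did not stand out in that library. In OSVZ, OSVZ_17int replicate 1 stood out for miR-145-5p (4610.0 CPM, the next 2198) and miR-199b-5p (25.9 CPM, the next 14.6). OSVZ_18 replicate 1 stood out for miR-214-3p (339.9 CPM, the next 179) and miR-143-5p (9.13 CPM), and OSVZ_18 replicate 2 for miR-214-5p (60.4 CPM, the next 18.6). The value without the library is given beside the calls of miR-145-5p, miR-214-3p and miR-199b-5p wherever it ended them.

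Among arms with few counts, miR-451-3p stood out in CP_17 replicate 2 (4.29 CPM from 36 counts) and in VZ_17 replicate 2 (0.135 CPM from 1 count), miR-199a-3p in VZ_17 replicate 1 (0.645 CPM from 3 counts) and miR-199b-3p in VZ_18 replicate 2 (2.32 CPM from 16 counts).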

How the results depend on the processing

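The number of member arms called in VZ against CP, 2 as reported, was 1 with no replicate block, 1 with DESeq2 size factors, 1 with no filter on low counts, 0 with counts summed by set and zone, 3 with arms of at least 10 CPM, 3 without VZ_18 replicate 1 and VZ_17 replicate 2, and 0 to 2 with single libraries left out. In OSVZ against CP, 3 as reported, the same summing gave 0, and it was 0 to 3 with single libraries left out. For area 17 against area 18 it was 0 as reported and 0 to 1 with single libraries left out. The count of called ratios, 3 as reported, was 0 to 3 with single libraries left out, 2 with no replicate block and 4 without VZ_18 replicate 1 and VZ_17 replicate 2. With no replicate block, the calls of miR-199b-5p in VZ, miR-145-5p in OSVZ and the ratio of miR-126-3p to miR-145-5p ended. Where a setting left fewer libraries or arms, fewer calls can follow from that alone, and otherwise the cause was not tested. A region left with 1 library was assumed to vary like the others.

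None of the called values changed sign under any alternative. In all, 1434 single values were recomputed for 69 results, each 1 arm in 1 comparison or 1 ratio. Of these values, 89 uncalled ones, of 26 results, took another sign, 55 fell below and 7 rose past the threshold. Over all arms, 84 calls in VZ against CP became 53 with no replicate block, 169 with DESeq2 and 53 without CP_17 replicate 2. The 72 in OSVZ against CP became 120 with DESeq2, 125 without VZ_18 replicate 1 and VZ_17 replicate 2, 45 without CP_17 replicate 1, 44 without OSVZ_18 replicate 2 and 43 in the summed fit. For OSVZ against VZ the range was 0 to 28 and for area 17 against area 18 it was 0 to 24 (0 to 26 within VZ, 0 to 1 within OSVZ, 0 to 3 within CP). Depth limited miR-143-5p, miR-144-5p and miR-145-3p, which had a median of 8, 5 and 14.5 counts per library, and the 4 arms that were not tested.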

Other observations

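Some members lay higher in 1 set. miR-126-3p was higher in set 1 (embryonic day 80) than in set 2 (day 79) in 7 of 7 regions, by a median of 2.92-fold, at 1633 to 3932 CPM against 702 to 1754 CPM. Among all tested arms, 5.36% were higher in set 1 in every region and 2.81% higher in set 2 in every region. miR-144-5p was also higher in set 1 in 7 of 7 regions, on few counts, and miR-451-5p in 6 of 7, by a median of 4.28-fold. miR-126-5p was higher in set 1 in 5 of 7 regions, by a median of 2.02-fold, and the low arm miR-143-5p in 6 of 7, by a median of 3.88-fold. Of the mural and mesenchymal main arms, miR-145-5p was higher in set 1 in 4 of 7 regions, miR-143-3p in 3, miR-214-3p in 5, miR-199a-5p in 5 and miR-199b-5p in 5. Age, animal and handling are each tied to the set and cannot be told apart, no difference between cell types was tested, and the block for set removes this shift from the comparisons of zones.

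The log2 ratio of the miR-126 arms, 5p to 3p, was lower in set 1 than in set 2 in 7 of 7 regions. It ran from -2.58 to -1.38 in set 1 and from -1.33 to -0.64 in set 2, with the lowest value in CP_17 and the highest in CP_18. The arm ratios of other hairpins were not compared between sets, so this cannot be called particular to miR-126.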
